A study of Mus musculus with 12 samples.

Results

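A set of 10 genes that the anterior pituitary is known for, out of the 48709 gene identifiers counted in each library, were followed through 12 RNA-seq libraries of cultured mouse hypothalamic cells. They comprise 6 hormone genes (Pomc, Tshb, Cga, Gh, Prl and Lhb) and 4 genes of pituitary transcription factors (Pou1f1, Tbx19, Lhx3 and Pitx1). The set was chosen by its read counts in these same libraries: Pomc, Tshb and Cga were seen to be high in 2 of the 3 mCherry-positive libraries and Pomc to be lower in EGFP-positive libraries. The levels and fold changes of these 10 genes are therefore given as a description. Where the number of them past a threshold is given, it stands beside the share of all genes past the same threshold, and no result is read from it.

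All cells came from hypothalami of C57BL/6 mouse embryos at embryonic day 18, which were dissociated, mixed with a virus at a multiplicity of infection of 10 and grown in suspension as neurospheres, free-floating clumps of neural progenitors and their progeny. In the Hcrt sort, for cells making hypocretin (orexin), the virus was an adeno-associated virus and the reporter mCherry. In the MCH sort, for cells making melanin-concentrating hormone (gene Pmch), it was a lentivirus and the reporter EGFP. Medium with bFGF, a growth factor, at 10 ng/ml followed 24 h later, and about a week after that the spheres were taken apart and the cells sorted, which gave 4 groups of 3 libraries, the positive and the negative cells of each reporter. The reporter-negative cells had thus been through the same virus and culture as the reporter-positive cells. The SMART-Seq v4 reaction started from 0.8 ng of RNA in the Hcrt sort and 2 ng in the MCH sort and ran for 11 PCR cycles, so that virus, reporter and RNA input all differ between the sorts and cannot be told apart. The labels name no promoter for either reporter and do not say whether replicates were separate cultures, so a p-value measures the spread between these samples alone, and that spread may be technical.

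The anterior pituitary forms from an epithelial pouch of the oral ectoderm that comes to lie against the floor of the hypothalamus, and its hormone cells arise from shared precursors. Lhx3 and Pitx1 act early in that tissue. Tbx19 (also called TPIT) drives Pomc in corticotrophs, while Pou1f1 (PIT1) is needed for the cells that make growth hormone (Gh), prolactin (Prl) and the beta subunit of thyrotropin (Tshb). Cga encodes the alpha subunit that thyrotropin, luteinizing hormone and follicle-stimulating hormone share, and Lhb the beta subunit of luteinizing hormone. Pomc encodes the precursor of adrenocorticotropin and the melanocortins. It is also made by neurons of the arcuate nucleus, so Pomc alone does not set the pituitary apart from the hypothalamus.

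The proximal promoters of 5 of the genes show the sequence from which those transcripts start. They are shown because these genes led the choice of the set (Pomc, Tshb and Cga) or belong to the Pou1f1 lineage (Prl and Pou1f1). Each run holds the 250 bases before the transcription start site, 5′ to 3′ on the gene's own strand, from RefSeq on build GRCm38.p6, and capitals mark matches to the motifs listed after them.
Pomc, chr12:3954695-3954944, plus strand: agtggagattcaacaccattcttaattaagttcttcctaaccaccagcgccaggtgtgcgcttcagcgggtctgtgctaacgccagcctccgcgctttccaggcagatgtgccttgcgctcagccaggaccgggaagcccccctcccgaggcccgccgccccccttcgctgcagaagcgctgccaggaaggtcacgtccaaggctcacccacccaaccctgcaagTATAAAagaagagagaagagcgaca
Tshb, chr3:102782715-102782964, minus strand: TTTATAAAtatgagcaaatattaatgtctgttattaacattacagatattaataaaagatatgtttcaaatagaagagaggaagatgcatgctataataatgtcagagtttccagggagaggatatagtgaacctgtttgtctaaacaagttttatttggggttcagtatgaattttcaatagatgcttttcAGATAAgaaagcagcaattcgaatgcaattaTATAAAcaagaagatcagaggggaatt
Cga, chr4:34893529-34893778, plus strand: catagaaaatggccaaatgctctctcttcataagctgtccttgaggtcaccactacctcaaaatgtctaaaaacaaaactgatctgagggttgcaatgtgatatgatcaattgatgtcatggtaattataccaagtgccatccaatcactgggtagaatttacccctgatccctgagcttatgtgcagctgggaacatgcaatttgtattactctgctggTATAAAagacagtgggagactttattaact
Prl, chr13:27057320-27057569, plus strand: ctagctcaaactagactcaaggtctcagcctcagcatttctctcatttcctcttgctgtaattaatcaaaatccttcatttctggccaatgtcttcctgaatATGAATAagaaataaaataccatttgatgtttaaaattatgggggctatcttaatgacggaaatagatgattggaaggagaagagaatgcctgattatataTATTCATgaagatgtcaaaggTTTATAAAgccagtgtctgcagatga
Pou1f1, chr16:65520262-65520511, plus strand: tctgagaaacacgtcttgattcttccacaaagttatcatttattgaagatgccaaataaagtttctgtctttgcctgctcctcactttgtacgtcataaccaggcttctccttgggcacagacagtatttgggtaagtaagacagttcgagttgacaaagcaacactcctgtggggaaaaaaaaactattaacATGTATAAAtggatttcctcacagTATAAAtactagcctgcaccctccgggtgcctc

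Of the 10 genes, 8 had an entry in the promoter table used here, with 10 entries in all since Lhx3 and Pou1f1 have 2 start sites each. The motifs were searched on both strands in the same 250 bases of 32851 mouse promoters. TATAAA, the letters of a TATA box, was found at any position in 7 of the 10 entries against 12.4% of all promoters. The match nearest the start began at -25 in Pomc, -27 in Tshb, -30 in Cga, -31 in Lhb, -24 in Prl and -33 in Pou1f1. In Lhx3 the only match lay farther off, from -176 to -171. TATNCAT, the core that POU1F1 binds, was found in 2 of the 10 (Prl and Pou1f1) against 7.92%. In the Pou1f1 promoter that match, from -57 to -51, overlaps a TATAAA from -54 to -49. In the Prl promoter it lies from -148 to -142 and from -47 to -41. AGATAA, which factors of the Gata family bind, was found in the promoters of Tshb (-58 to -53) and Tbx19 (-153 to -148), against 9.99% of all promoters. CAAGGTCA, the motif of steroidogenic factor 1, was found in the window of Lhb (-129 to -122), against 1.33%. That distance is from the RefSeq start, which lies 126 bases inside the Lhb transcript annotated by GENCODE, so the position of this match relative to the start depends on the annotation. TAATCC (6.25% of all promoters), TCACACC (3.33%) and TGACGTCA (1.55%), motifs of PITX factors, T-box factors and cyclic AMP response element binding proteins, were found in none of the 10 windows. A match is a string of letters, not a measured binding site.

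Libraries held 16.3 to 32.9 M (megareads) assigned to genes, with another 31.4% to 38.2% of each library's counts in entries without a gene name. Levels are counts per megaread in genes (CPM), and a count of 0 in a library allows up to 3 counts, which is 0.091 to 0.184 CPM depending on depth. These limits cover counting error only, since PCR copies were not marked. The transcripts that the sorts were named for were low: Hcrt stood at 0.09 to 0.43 CPM in mCherry-positive and 0.03 to 0.23 CPM in mCherry-negative libraries, ranges that overlap. Pmch stood at 16.3 to 17.8 CPM in EGFP-positive and 4.01 to 5.12 CPM in EGFP-negative libraries.

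Pomc (ENSMUSG00000020660, GRCm38 chromosome 12, 3954951 to 3960642, plus strand) was the most abundant of the 10 genes in every group. In replicate order it stood at 3.92, 2109 and 4251 CPM in mCherry-positive libraries and at 3.69, 193 and 88.7 CPM in mCherry-negative libraries. In the other sort it stood at 37.3, 26.9 and 19.5 CPM in EGFP-positive libraries and at 394, 325 and 294 CPM in EGFP-negative libraries. Replicate 1 of both mCherry groups was low, the other 2 mCherry-positive libraries were above all 10 remaining libraries, and all 3 EGFP-positive libraries were below all 3 EGFP-negative ones. By number of reads Pomc ranked 3 among all genes in mCherry-positive replicate 3 and 17 in replicate 2, but 12429 in replicate 1. In EGFP-negative libraries it ranked 309, 417 and 513, and in EGFP-positive libraries 5931, 7255 and 8380. The SD of the mCherry-positive group, 2124 CPM, was as large as its mean of 2121 CPM (n = 3), whereas the EGFP groups were tight, at 27.9 ± 8.95 CPM and 338 ± 51.2 CPM (SD, n = 3). In bulk libraries such as these, fewer cells of a type and less RNA per cell cannot be told apart.

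Tshb (ENSMUSG00000027857, chromosome 3, 102775465 to 102782718, minus strand), the beta subunit of thyrotropin, spanned a wider range relative to its lowest level than Pomc, Cga or Gh. It stood at 0.12, 71.1 and 673 CPM in mCherry-positive libraries and at 0.13, 0.40 and 14.1 CPM in mCherry-negative libraries. In EGFP-positive libraries it stood at 3.76, 2.56 and 2.52 CPM, all below the 19.8, 14.5 and 18.1 CPM of EGFP-negative libraries. Replicate 1 of both mCherry groups held only 3 and 4 reads of Tshb, close to the counting limit, while mCherry-positive replicate 3 held 22130. The 2 mCherry groups overlapped because of replicate 1, and the 2 EGFP groups did not overlap.

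Cga (ENSMUSG00000028298, chromosome 4, 34893779 to 34907370, plus strand), the shared alpha subunit, was, like Pomc, highest in mCherry-positive replicates 3 and 2. Its levels were 2.45, 62.8 and 436 CPM in mCherry-positive libraries and 1.65, 18.2 and 5.99 CPM in mCherry-negative libraries. They were 7.22, 3.79 and 4.17 CPM in EGFP-positive libraries and 30.6, 26.7 and 26.3 CPM in EGFP-negative libraries. As with Pomc, mCherry-negative replicate 2 lay above replicate 3, whereas Tshb had the opposite order in these 2 libraries. Of the exonic bases of Cga, 32.0% are shared with Platr9, a noncoding gene on the opposite strand. The strand setting of the counting is not given in the sources used here, so reads over that stretch cannot be told apart between Cga and Platr9.

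Gh (ENSMUSG00000020713, chromosome 11, 106300271 to 106301865, minus strand), growth hormone, stood at 0.08, 75.6 and 152 CPM in mCherry-positive libraries and at 0.10, 0.68 and 62.4 CPM in mCherry-negative libraries. It stood at 14.2, 12.1 and 9.48 CPM in EGFP-positive libraries and at 17.1, 15.2 and 14.9 CPM in EGFP-negative libraries. The EGFP groups lay close together, at 11.9 ± 2.37 and 15.8 ± 1.21 CPM (SD, n = 3), in contrast to the gap seen for Pomc, Tshb and Cga. Like Tshb, Gh was higher in mCherry-negative replicate 3 than in replicate 2, with 1353 reads against 22.

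Prl (ENSMUSG00000021342, chromosome 13, 27057570 to 27065205, plus strand), prolactin, was near the limit of counting, with 367 reads in the 12 libraries together. It stood at 0, 0.32 and 2.10 CPM in mCherry-positive libraries and at 0, 3.77 and 2.86 CPM in mCherry-negative libraries, the only hormone gene here with a higher mean in the mCherry-negative group. In EGFP-positive libraries it stood at 0.94, 0.41 and 0.03 CPM and in EGFP-negative libraries at 1.18, 0.97 and 1.29 CPM. Lhb (ENSMUSG00000100916, chromosome 7, 45420820 to 45421897, plus strand), the luteinizing hormone beta subunit, was low throughout. Its levels were 0.61, 0.89 and 0.49 CPM in mCherry-positive, 0.20, 1.04 and 0 CPM in mCherry-negative, 1.12, 0.67 and 1.16 CPM in EGFP-positive and 1.66, 1.43 and 1.10 CPM in EGFP-negative libraries. Lhb did not share the pattern of the other hormone genes: its mCherry-positive replicate 1 lay between the other 2 libraries of its group, and both sorts overlapped. Of its exonic bases, 20.4% are shared with Ruvbl2 on the opposite strand, with the same limit as for Cga.

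**Figure D1:**
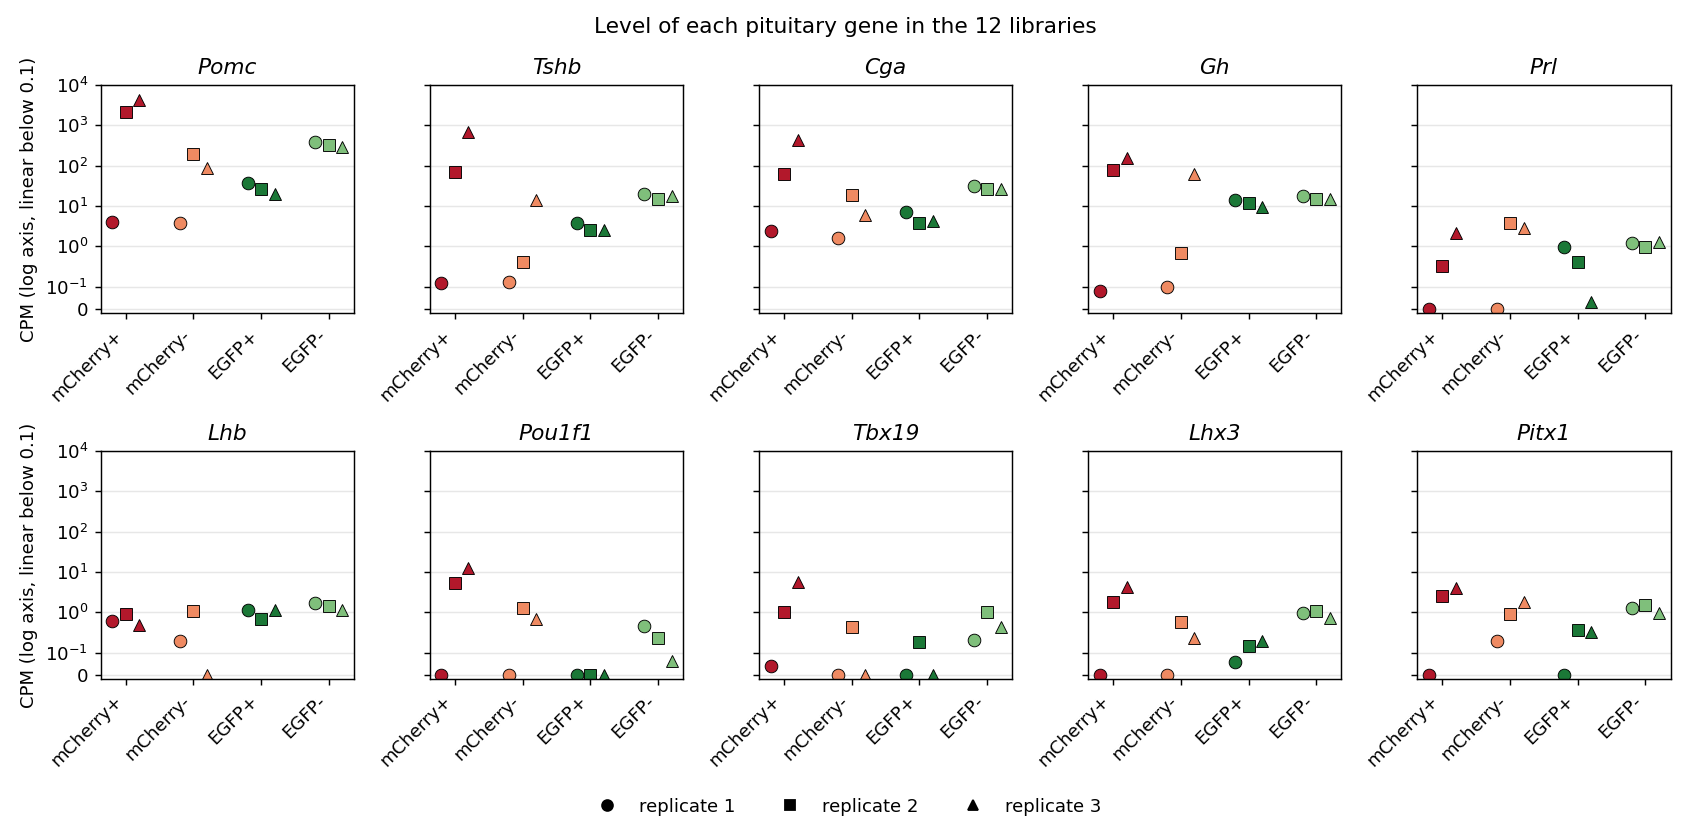
Level of each of the 10 genes in every library, in CPM on a log axis that is linear below 0.1, by group and with the replicate number as the point's shape. Replicate 1 of both mCherry groups is near 0 for most genes, and Pomc, Tshb and Cga in EGFP-positive libraries lie below their EGFP-negative libraries.

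By mean CPM the 4 transcription factors were lower than Pomc, Tshb, Cga and Gh in every group, and all 4 were highest in mCherry-positive replicate 3. Single libraries did not always keep that order. In mCherry-negative replicate 2 the 4 factors, at 0.43 to 1.29 CPM, stood above Tshb at 0.40 CPM. Pou1f1 (ENSMUSG00000004842, chromosome 16, 65520511 to 65535005, plus strand) stood at 0, 5.41 and 12.2 CPM in mCherry-positive libraries and at 0, 1.29 and 0.69 CPM in mCherry-negative libraries. It had no read in the 3 EGFP-positive libraries and 11, 6 and 1 reads in the EGFP-negative libraries. Set against the limit of 3 counts over the EGFP-positive group, those 18 reads were at least 6.73-fold higher per read sequenced. Pou1f1 was thus at 0 in EGFP-positive libraries that held 211 reads of Tshb and 860 reads of Gh, both genes that POU1F1 drives in the pituitary. It was sparse in EGFP-negative libraries too, with 18 reads beside 1157 of Tshb and 1059 of Gh. Its 0, which allows up to 3 counts, does not show that Pou1f1 was absent.

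Tbx19 (ENSMUSG00000026572, chromosome 1, 165137855 to 165160773, minus strand) stood at 0.04, 1.01 and 5.66 CPM in mCherry-positive libraries. It was at 0 in mCherry-negative replicates 1 and 3 and at 0.43 CPM in replicate 2. In EGFP-positive libraries only replicate 2 held reads, 5 in all, and EGFP-negative libraries stood at 0.20, 1.01 and 0.43 CPM. The corticotroph factor thus had no read in mCherry-negative replicate 3, which held 1925 reads of Pomc. Where both were highest Tbx19 was sparse too, with 32 reads beside 66674 of Pomc in mCherry-positive replicate 2. Replicate 3 of that group held 186 beside 139816. Since a count of 0 allows up to 3, the 0 beside 1925 reads does not show that Tbx19 was absent.

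Lhx3 (ENSMUSG00000026934, chromosome 2, 26200212 to 26208289, minus strand) stood at 0, 1.83 and 4.29 CPM in mCherry-positive libraries and at 0, 0.58 and 0.23 CPM in mCherry-negative libraries. Within the EGFP sort it stood at 0.06, 0.15 and 0.19 CPM in positive and at 0.97, 1.09 and 0.74 CPM in negative libraries. Pitx1 (ENSMUSG00000021506, chromosome 13, 55825051 to 55836192, minus strand) stood at 0, 2.47 and 3.89 CPM in mCherry-positive libraries and at 0.20, 0.89 and 1.75 CPM in mCherry-negative libraries. Both early pituitary factors had their lowest mCherry libraries in replicate 1. Pitx1 stood at 0, 0.37 and 0.32 CPM in EGFP-positive and at 1.26, 1.47 and 0.98 CPM in EGFP-negative libraries. For Lhx3 as for Pitx1, no EGFP-positive library reached the lowest EGFP-negative one. Antisense or overlapping genes share 3.5% of the exonic bases of Pou1f1, 6.2% of those of Lhx3, and 6.2% and 4.1% of those of Pitx1.

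Comparing genes needs a level per length, here CPM per kilobase of the gene's median coding transcript (RPKM). By mean RPKM Pomc came first in all 4 groups, at 2171 and 97.4 in mCherry-positive and mCherry-negative libraries, and 28.5 and 346 in the positive and negative libraries of the EGFP sort. Among mCherry-positive libraries Tshb (449), Cga (243) and Gh (88.2) followed, with SDs of 669.6, 342 and 88.4 RPKM that leave the order of these neighbours undecided. In EGFP-negative libraries the order was Cga (40.6 ± 3.43), Tshb (31.6 ± 4.96) and Gh (18.3 ± 1.40 RPKM, SD, n = 3). Gh stood second in EGFP-positive libraries, at 13.8 ± 2.75 RPKM, above Cga at 7.37 ± 2.74 and Tshb at 5.34 ± 1.27. The 4 factors, Lhb and Prl were below 5 RPKM in every group, and Pou1f1 led the factors only in the mCherry-positive group, at 4.73 RPKM.

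Together the 10 genes held 7.23, 2331 and 5541 CPM in mCherry-positive libraries, and 5.96, 220.3 and 177 CPM in mCherry-negative libraries. They held 64.6, 47.1 and 37.4 CPM in EGFP-positive libraries and 467, 388 and 358 CPM in EGFP-negative libraries. The make-up of that total differed between libraries as well as its size. For every 100 reads of Pomc there were 2.08, 3.59 and 3.59 reads of Gh in mCherry-positive libraries, 4.35, 4.68 and 5.08 in the EGFP-negative group, and 38.1, 44.95 and 48.7 in EGFP-positive libraries. In mCherry-negative libraries there were 2.68, 0.35 and 70.3. The 2.08 and 2.68 of replicate 1 rest on 2 and 3 reads of Gh, no more than the counting limit of 3. So Gh relative to Pomc was alike within each EGFP group and apart between them, and spread over the whole range in the mCherry-negative group.

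Thyrotropin's subunits gave another ratio. For every 100 reads of Cga there were 52.0, 67.6 and 60.5 reads of Tshb in the EGFP-positive group and 64.9, 54.1 and 68.9 in the EGFP-negative group, ranges that overlap even though both genes were lower in the positive group. The mCherry-positive libraries had 5, 113 and 154, and in mCherry-negative libraries 8, 2.19 and 235. The ratio was below 10 in 3 of the 6 libraries of the mCherry sort and above 100 in the 3 others. Its values of 5 and 8, both in replicate 1, rest on only 3 and 4 reads of Tshb. Tshb and Cga thus kept no steady ratio in the mCherry sort, unlike in the EGFP sort.

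**Figure D2:**
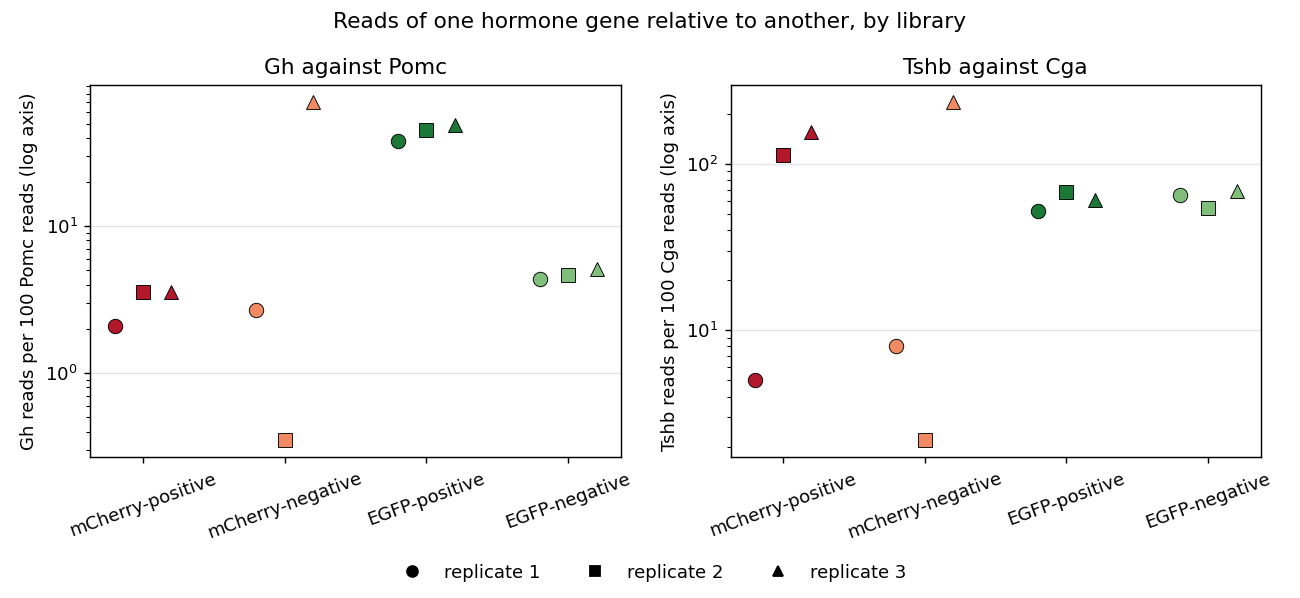
Reads of Gh for every 100 reads of Pomc (left) and of Tshb for every 100 reads of Cga (right), on log axes, by group and with the replicate number as the point's shape. EGFP-positive libraries hold 38.1 to 48.7 reads of Gh for every 100 of Pomc against 4.35 to 5.08 in EGFP-negative libraries, while the Tshb to Cga ratio of those groups overlaps.

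The sort for Hcrt cells was fitted on its 6 libraries with edgeR's quasi-likelihood model. The fitted log2 differences of mCherry-positive over mCherry-negative, with their standard errors, were 4.40 ± 1.74 for Pomc, 5.65 ± 2.06 for Tshb, 4.18 ± 1.40 for Cga, 1.81 ± 1.81 for Gh, -1.52 ± 1.56 for Prl and 0.61 ± 1.16 for Lhb. For the factors they were 3.07 ± 1.56 for Pou1f1, 3.77 ± 1.67 for Tbx19, 2.81 ± 1.54 for Lhx3 and 1.12 ± 1.27 for Pitx1. The fit lay above 0 for 9 genes and below 0 for Prl, with errors of more than 1 log2 unit throughout. All 10 passed the filter on low counts, and none had an adjusted p under 0.05, against 1.2% of the 17369 genes tested (0.541% higher and 0.656% lower). At an unadjusted p under 0.05 there were 4 of them, against 3233 of the 17369 genes tested. DESeq2 called none of them, against 1476 of the same genes. With no filter on low counts edgeR called 3 (Pomc, Tshb and Cga), against 778 of 27715 genes. Without mCherry-positive replicate 1 it called Cga, against 212 of 18173 genes. None of the 10 was called in the 5 other fits that leave out 1 library, which called 0 to 29 of all genes. For all 10 the libraries of the groups overlapped, while 12.7% of genes tested had all 3 positive libraries above all 3 negative ones and 12.7% all below. Leaving out 1 library at a time moved the log2 difference of Tshb from 2.88, without mCherry-positive replicate 3, to 9.77, without mCherry-negative replicate 3. The same 2 libraries set the range for Gh, 0.85 to 7.53. Cga ran from 1.88 without mCherry-positive replicate 3 to 5.41 without mCherry-negative replicate 2.

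In the sort for MCH cells the fitted log2 differences of EGFP-positive over EGFP-negative were -3.50 ± 0.23 for Pomc, -2.48 ± 0.22 for Tshb, -2.38 ± 0.24 for Cga, -0.30 ± 0.18 for Gh, -1.31 ± 0.78 for Prl and -0.41 ± 0.41 for Lhb. For Lhx3 and Pitx1 they were -2.56 ± 0.58 and -2.17 ± 0.71, and Pou1f1 and Tbx19 did not pass the filter on low counts. Gh thus differed by little between groups in which Pomc, Tshb and Cga differed by more than 2 log2 units. Of the 10 genes, 4 (Pomc, Tshb, Cga and Lhx3) were below the threshold of an adjusted p of 0.05, all lower, against 7.07% of the 16326 genes tested that were called lower, 8.99% called higher and 16.1% called in either direction. Of the 8 genes tested, all but Lhb had every EGFP-positive library below every EGFP-negative one, against 24.5% of all genes tested. Pou1f1 and Tbx19, not tested, had this order too, but by margins within counting error. Pou1f1 had 0 reads in EGFP-positive libraries and 1 read in EGFP-negative replicate 3. Tbx19 reached 0.19 CPM in EGFP-positive replicate 2 against 0.20 CPM in EGFP-negative replicate 1. Among the tested genes Gh and Prl had such narrow margins too. Gh reached 14.2 CPM (95% Poisson interval 12.5 to 16.1) in EGFP-positive replicate 1 against 14.9 (13.1 to 16.9) in EGFP-negative replicate 3. Prl reached 0.94 CPM (0.54 to 1.53) in EGFP-positive replicate 1 against 0.97 (0.63 to 1.43) in EGFP-negative replicate 2. Intervals of the nearest libraries also overlapped for Lhx3 and Pitx1. With 1 library left out at a time 3 to 5 were below the threshold, against 480 to 2360 genes called lower among 16877 to 17020 tested. Lhx3 was called in 3 of 6 such fits. Since Pomc was seen to be low here when the set was chosen, nothing is read from these counts. In 1 fit of all 12 libraries, none of the 10 had an adjusted p under 0.05 for the difference between the sorts, against 1.44% of 18063 genes (0.886% higher and 0.559% lower). Without adjustment 6 of the 10 had a p under 0.05, against 2737 of the 18063 genes. DESeq2 called 3 of the 10, against 894 of the same genes. With no filter on low counts 6 were called, against 675 of 29721 genes. Without mCherry-positive replicate 1 there were 5 (Pomc, Tshb, Cga, Pou1f1 and Lhx3), against 591 of 18773 genes. Without mCherry-negative replicate 3 there was 1 (Tshb), against 330 of 18776 genes. The 10 other fits that leave out 1 library called none of the set, and 27 to 275 of all genes.

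**Figure D3:**
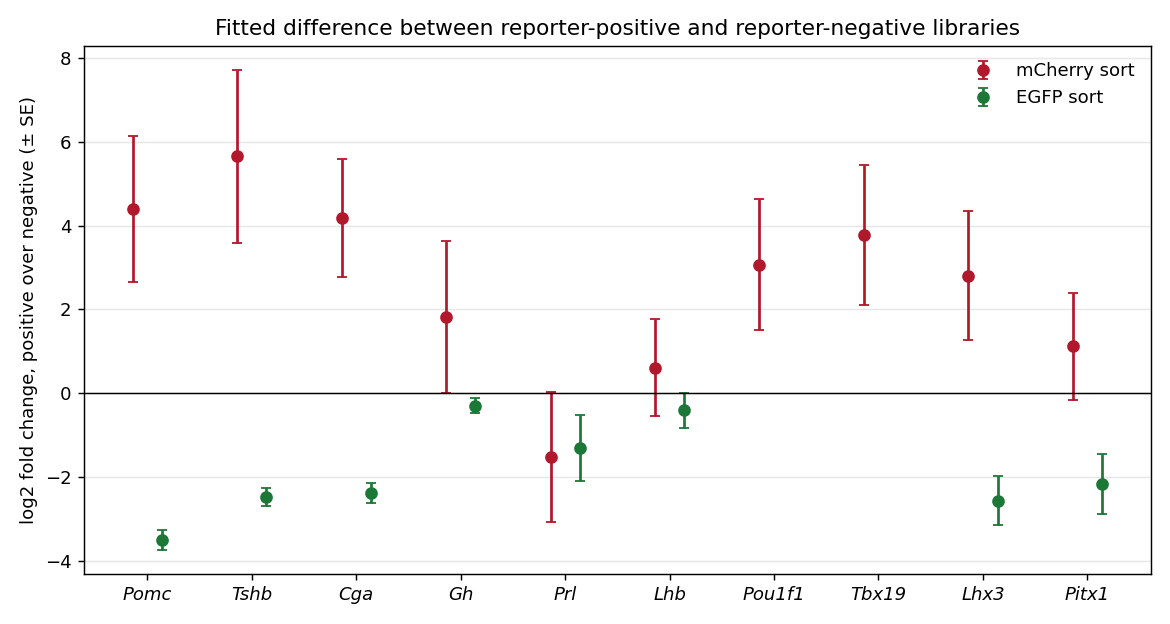
Fitted log2 difference of reporter-positive over reporter-negative libraries for each gene, with its standard error, in the mCherry sort and the EGFP sort. Errors exceed 1 log2 unit for all 10 genes in the mCherry sort, and Pou1f1 and Tbx19 have no EGFP value because they did not pass the filter on low counts.

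Other genes of the pituitary were read from lists. Of 17 developmental and lineage factors, 13 were tested in the EGFP sort, where 1 fell and 2 rose, and the median log2 difference was -0.21 against -0.01 over all genes tested. Nr5a1, which encodes steroidogenic factor 1, fell by 3.09 (SE 0.48, adjusted p 0.00313, from the edgeR fit as for all adjusted p that follow). It went from 1.5, 2.87 and 2.33 CPM in EGFP-negative to 0.23, 0.19 and 0.29 CPM in EGFP-positive libraries. It was lower in all 3 positive libraries than in any negative one. Otx2, a factor of the forebrain and the developing pituitary, rose by 0.72 (SE 0.13, adjusted p 0.00674), to 52.5, 64.3 and 54.5 CPM from 38.0, 36.6 and 37.3 CPM. Zbtb20, a factor that the hypothalamus makes too, rose by 0.38 (SE 0.10, adjusted p 0.0337). Its call held in 1 of 6 fits that leave out 1 library, the one without EGFP-positive replicate 1, and the others gave 0.0573 to 0.142. With 1 library left out at a time, 1 to 2 of these factors were called higher and 1 to 4 lower.

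In the mCherry sort 12 of these 17 factors were tested and none passed, against 4 with an unadjusted p under 0.05 and 3 that DESeq2 called, and the median was 0.03 against 0.02 over all genes. The 2 most abundant, Zbtb20 and Sox2, a factor of neural progenitors, differed by 0.16 ± 0.19 and -0.12 ± 0.17 (log2 ± SE). Gata2, a factor of thyrotrophs and gonadotrophs, stood at 0.16, 7.75 and 8.51 CPM in mCherry-positive libraries and at 0.53, 0.49 and 0 CPM in mCherry-negative ones, values looked up after the others were seen. Of the 12 factors tested, 6 fitted above 0 and 6 below. Those below included Insm1 (-1.24 ± 0.28), Sox3 (-0.91 ± 0.39), Neurod1 (-0.7 ± 0.81) and Isl1 (-0.59 ± 0.5), also named after their values were seen. The early pouch factor Hesx1 had no read in any of the 12 libraries.

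Of 12 pituitary receptors and remaining hormone subunits, 5 were tested in each sort. Trhr, the receptor for thyrotropin-releasing hormone, rose in the mCherry sort (adjusted p 0.0349), from 0, 0 and 0.09 CPM to 1.88, 3.01 and 8.48 CPM. Its summed 420 reads against 2 gave a ratio of 199.8 per read sequenced, with a 95% exact interval of 55.0 to 1655 that covers counting error only. Trhr in mCherry-positive replicate 1, too, stood above all mCherry-negative libraries. Its call held in 1 of the 6 fits that leave out 1 library, the one without mCherry-positive replicate 1, and the 5 others gave adjusted p of 0.0575 to 0.17. The list's median was 0.87 in this sort and -0.56 in the EGFP sort. There Gnrhr, the gonadotroph receptor for gonadotropin-releasing hormone, fell by 3.41 (SE 0.69, adjusted p 0.0108), from 2.47, 0.93 and 2.46 CPM to 0.29, 0.04 and 0.19 CPM. That call was lost without EGFP-negative replicate 1 (0.0537) or replicate 3 (0.0504). Fshb, the beta subunit of follicle-stimulating hormone, had reads in 1 library only, EGFP-negative replicate 2, at 0.08 CPM.

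Hormone cells cut their precursors with convertases and store them in dense-core granules, as neurons do. All 14 genes of that list were tested in both sorts. Of these, 4 fell and 2 rose in the EGFP sort, with a median of -0.32. Chga and Scg2, granule proteins, fell by 1.5 (SE 0.14, adjusted p 0.000413) and 1.32 (SE 0.14, adjusted p 0.000484), and Pcsk2, the convertase that makes melanocortins from the Pomc product, fell by 1.28 (SE 0.20, adjusted p 0.00304). Cpe, carboxypeptidase E, which astrocytes make as well, rose by 0.88 (SE 0.08, adjusted p 0.000283). The other calls, named after their values were seen, were Chgb (-0.64 ± 0.14, adjusted p 0.0138) and Scg3 (0.48 ± 0.09, adjusted p 0.00876). Scg2 thus stood at 22.4, 24.5 and 22.2 CPM in EGFP-positive and at 57.4, 68.0 and 60.2 CPM in EGFP-negative libraries. In the mCherry sort none of the 14 passed, though 13 fitted above 0 with a median of 1.0. An unadjusted p under 0.05 was reached by 9 of them and DESeq2 called 3, all higher. Without mCherry-positive replicate 1, edgeR called 6 of them higher. Its 2 most abundant genes, Cpe and Scg3, differed by 0.75 ± 0.29 and 0.16 ± 0.21.

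**Figure D4:**
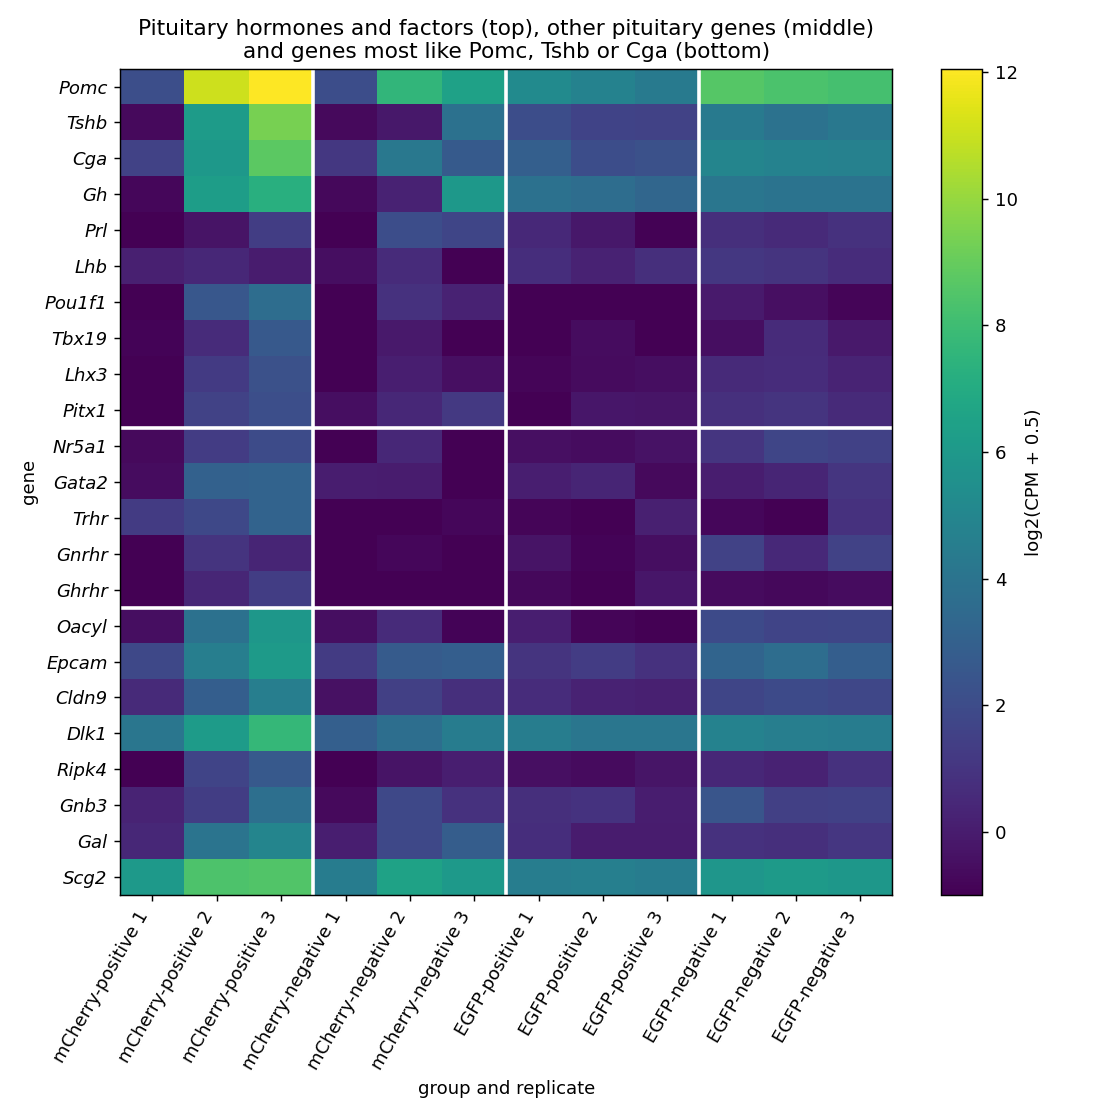
Rows are the 10 pituitary genes (top), Nr5a1, Gata2, Trhr, Gnrhr and Ghrhr (middle) and genes whose levels were most like Pomc, Tshb or Cga (bottom). Colour gives log2(CPM + 0.5) in the 12 libraries. The middle rows were picked from the lists of pituitary factors and receptors, not all by the naming rule, and the rest are not drawn. Of the tested factors, 6 fitted above 0 and 6 below in the mCherry sort. The brightest columns are mCherry-positive replicates 2 and 3, in which Pomc stands at 2109 and 4251 CPM.

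Since Pomc is also a gene of arcuate neurons, 15 genes of the arcuate melanocortin circuit were read beside it. On the mCherry side 10 were tested and none passed, against 4 with an unadjusted p under 0.05 and 2 that DESeq2 called, and the median was 1.21. Its 2 most abundant genes, the neuropeptide gene Npy and the insulin receptor gene Insr, differed by -1.33 ± 0.60 and -0.14 ± 0.24. Npy and Pomc were high in different libraries: Npy was highest in mCherry-negative replicate 3, at 92.9 CPM, and stood at 19.5 and 21.6 CPM in mCherry-positive replicates 2 and 3. Cartpt, a transcript of arcuate Pomc neurons, stood at 4.87 and 8.18 CPM in those 2 libraries and at 0.82 CPM in replicate 1. In mCherry-negative libraries it stood at 0.13, 1.38 and 1.29 CPM. Of the 10 genes tested, 7 fitted above 0 and 3 (Npy, Insr and Mc4r) below. Those above included Nhlh2 (2.65 ± 1.04), Tbx3 (2.17 ± 0.48) and Htr2c (2.14 ± 0.68). Values of genes other than Npy and Insr were looked up after the others were seen. On the EGFP side 9 were tested and 1 passed: Insr fell by 1.08 (SE 0.17, adjusted p 0.00346). The median there was -0.28.

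Releasing factors, which hypothalamic neurons send to the pituitary, and the neurohypophysial hormones made a list of 9. From it 5 were tested in the mCherry sort, none passed, none had an unadjusted p under 0.05 and DESeq2 called none. Its 2 most abundant, Sst (somatostatin) and Th (the enzyme that makes dopamine's precursor), differed by -0.87 ± 0.71 and 0.78 ± 0.70, and the median was 1.12. Sst fell in the EGFP sort by 0.81 (SE 0.23, adjusted p 0.039), the only call of 5 genes tested, with a median of -0.31. That call held in 1 of 6 fits that leave out 1 library, the one without EGFP-positive replicate 1, and the others gave adjusted p of 0.071 to 0.153.

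The infundibulum and its tanycytes, glia-like cells of the third ventricle's floor, lie against the pituitary. Of 7 such genes all were tested. In the EGFP sort 2 rose: Crym, a thyroid hormone binding protein, by 0.95 (SE 0.11, adjusted p 0.000856), and the receptor gene Gpr50 by 1.60 (SE 0.29, adjusted p 0.00623). Crym also rose in the mCherry sort, by 1.60 (SE 0.19, adjusted p 0.0181), and was lost there without mCherry-negative replicate 1 (0.0844) or 2 (0.113) or mCherry-positive replicate 3 (0.141). Crym stood at 128, 103 and 97.1 CPM in mCherry-positive and at 35.7, 34.0 and 36.8 CPM in mCherry-negative libraries. In the EGFP sort the 2 genes ran opposite to Pomc, Tshb and Cga, and replicate 1 of the mCherry-positive group was not low for Crym. The list's medians were 1.63 and 0.34 in the mCherry and EGFP sorts.

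Markers of other cells moved between the same groups. Epithelial genes, 12 listed, were tested for 9 in the mCherry sort, where 2 rose and all 9 fitted above 0 with a median of 2.38, and for 8 in the EGFP sort, where 3 fell with a median of -0.51. Epcam, an adhesion molecule of epithelia, stood at 3.10, 23.1 and 68.7 CPM in mCherry-positive and 1.94, 6.29 and 6.91 CPM in mCherry-negative libraries. In the EGFP sort it fell by 2.43 (SE 0.29, adjusted p 0.000938), to 1.47, 1.97 and 1.29 CPM from 8.59, 12.01 and 6.94 CPM, so that its high and low libraries in the EGFP sort were those of Pomc. Spint1, a protease inhibitor of epithelia, fell from 172 reads in EGFP-negative to 1 read in EGFP-positive libraries (adjusted p 0.00108), a ratio of 192.8 with a 95% exact interval of 34.2 to 7661. Mal2 fell by 1.99 (SE 0.52, adjusted p 0.0304), and was lost in 4 of 6 fits that leave out 1 library, those without EGFP-positive replicate 2 or any one of the EGFP-negative libraries (0.0532 to 0.118).

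In the mCherry sort Spint1 rose by 3.55 (SE 0.60, adjusted p 0.0349) and Mal2 by 2.55 (SE 0.45, adjusted p 0.0349), and each call held only without mCherry-positive replicate 1 among the 6 fits that leave out 1 library (0.0713 to 0.17 and 0.0942 to 0.16 in the others). The 12 epithelial genes summed to 30.7 to 224 CPM in mCherry-positive, 14.7 to 38.3 in mCherry-negative, 17.9 to 21.7 in EGFP-positive and 37.3 to 42.1 CPM in EGFP-negative libraries. Cdh1, epithelial cadherin, was at 0 in mCherry-positive replicate 2 and in all 3 mCherry-negative libraries. The part of epithelial cells in the levels of the pituitary genes was not tested.

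All 6 mesenchymal genes fell in the EGFP sort, with a median of -3.18. Among them Dcn differed by -3.79 (adjusted p 3.32e-05), Col1a1 by -3.20, Col3a1 by -3.17 and Col1a2 by -1.95. For Lum and Pdgfra, named after their values were seen, it was -4.10 and -1.42. Their sum was 105 to 218 CPM in EGFP-positive and 665 to 731 CPM in EGFP-negative libraries, lower in the positive group like Pomc. In the mCherry sort none of the 6 passed, none had an unadjusted p under 0.05 and DESeq2 called none. Pdgfra and Col3a1 differed there by -0.71 ± 0.33 and -1.11 ± 1.20, the median was -1.06, and the sums were 277 to 358 and 290.1 to 828 CPM. Pdgfra, which oligodendrocyte precursors make as well, accounted for 268.9 of the 277 CPM in mCherry-positive replicate 2. In that library, which held 2109 CPM of Pomc, Col3a1 stood at 0.03, Col1a1 at 0.28 and Dcn at 0.19 CPM and Lum at 0, whereas Col3a1 stood at 88.5 and 69.3 CPM in the other 2 mCherry-positive libraries.

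Of 7 pan-neuronal genes all were tested. In the EGFP sort 4 fell with a median of -0.49: Tubb3 (-0.49), Snap25 (-0.67), Stmn2 (-0.59) and Rbfox3 (-0.79). Calls of Tubb3 and Rbfox3 were lost without EGFP-positive replicate 2, EGFP-negative replicate 1 or EGFP-negative replicate 2 (0.0552 to 0.0623 and 0.082 to 0.0993), and that of Snap25 without EGFP-negative replicate 2 (0.0774). In the mCherry sort none passed, against 1 with an unadjusted p under 0.05 and none that DESeq2 called. The median was 0.04, and Tubb3 and Map2 differed by -1.0 ± 0.38 and 0.04 ± 0.17. Summed levels were 984 to 1838 CPM in the positive and 1385 to 1848 CPM in the negative libraries of the mCherry sort, and 743 to 1002 against 1172 to 1236 CPM in those of the EGFP sort.

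Of 6 astroglial genes 5 rose and 1 fell in the EGFP sort, with a median of 0.99, among them Gfap (1.08), Slc1a3 (1.34), Aldh1l1 (0.93) and Aldoc (0.74). Named after their values were seen, Aqp4 (1.05) was the other rise and S100b (-0.66) the fall. Their sums, 14343 to 17128 CPM in EGFP-positive and 7921 to 8075 CPM in EGFP-negative libraries, ran opposite to the pituitary genes. Gfap alone rose in the mCherry sort, by 1.45 (SE 0.21, adjusted p 0.0307), with a list median of 0.41 and sums of 8546 to 11343 and 4383 to 7662 CPM. The Gfap call was lost in 4 of 6 fits that leave out 1 library (without mCherry-positive replicate 3 or any one of the mCherry-negative libraries, 0.0605 to 0.158). Of 5 blood cell genes, the 4 globin genes had no read in any library, and Alas2, the only one tested in the mCherry sort, differed by 0.93 ± 1.20, with an unadjusted p above 0.05 and no call by DESeq2; none was tested in the EGFP sort. The part of mesenchymal, neuronal and astroglial cells in the differences of the pituitary genes was not tested.

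The genes whose levels over the 12 libraries were most like those of Pomc, Tshb and Cga were found among 13257 other genes whose mean level reached 1 CPM. Likeness was the root mean square difference of log2(CPM + 0.5) after centring each gene, where a gene with no variation would stand at 3.04 from Pomc, 2.85 from Tshb and 2.09 from Cga. Pomc itself stood at 1.42 from Tshb, 1.20 from Cga and 1.97 from Gh, and Tshb stood closer to Gh (1.20) than to Cga (1.38). Outside the set of 10 genes, which was left out of the ranking, the nearest gene to each of the 3 was Oacyl, at 1.55 from Pomc, 1.52 from Tshb and 0.58 from Cga. Oacyl stood at 0.204, 14.2 and 60.6 CPM in mCherry-positive, 0.198, 1.01 and 0.0461 CPM in mCherry-negative, 0.587, 0.0743 and 0 CPM in EGFP-positive and 3.32, 2.71 and 2.82 CPM in EGFP-negative libraries. Like Pomc it was low in replicate 1 of both mCherry groups and lower in every EGFP-positive than in any EGFP-negative library. Unlike Pomc it was lowest of the mCherry-negative group in replicate 3, with 1 read, where Pomc stood at 88.7 CPM against 3.69 CPM in replicate 1.

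Epcam and the tight junction gene Cldn9 were also among the 5 nearest genes outside the set for all 3 hormone genes. Epcam stood at 1.82 from Pomc, 1.76 from Tshb and 0.91 from Cga, and Cldn9 at 1.89, 1.82 and 0.84. The other named genes were Gal, the neuropeptide galanin (2.03), and Scg2 (2.09) for Pomc, Dlk1 (1.82) and Ripk4 (1.88) for Tshb, and Ripk4 (1.15) and Gnb3 (1.16) for Cga. These are descriptions over 12 libraries that share 4 groups, and 2 of the libraries, mCherry-positive replicates 2 and 3, hold the highest levels. With a pseudocount of 2 CPM, 3 of the 5 names stayed for each of the 3 hormone genes. By Pearson correlation 1 stayed for Pomc, 2 for Tshb and 3 for Cga, so the ranking depends on the measure, more for Pomc than for Cga.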

How the data were processed

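RNA from 12 sorted-cell samples was sequenced, 3 in each of 4 groups, which were taken from the sample titles and the sorted-cell label. The authors deposited 1 file per sample with unnormalized counts of reads for each Ensembl identifier. Per the submitters' processing notes, cutadapt 1.8, STAR 2.5.2b and HTSeq 0.6.1 were used with build GRCm38. Not given in the sources used here are the annotation release and the strand setting. The 5 summary entries of each file that name no gene, 31.4% to 38.2% of counted reads, were left out. Of 48709 identifiers, 48349 matched GENCODE M21 and 360 did not. Libraries held 16.3 to 32.9 M reads in genes, and chi-square per degree of freedom between replicates was 6.54 to 97.0, so no 2 files agreed within counting noise.

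Single levels are plain CPM, and RPKM divides them by the median length of coding transcripts. Each sort was fitted on its 6 libraries with edgeR 4.0.16 in R 4.3.3 (TMM, filterByExpr with minimum count 10 and minimum total 15, group as the only term, quasi-likelihood test, Benjamini-Hochberg adjustment over all genes tested, called at an adjusted p under 0.05), and the difference between the sorts on all 12. The standard error is the log2 difference divided by the square root of the F statistic. The fitting script was tested on simulated data. Alternatives were DESeq2 size factors, DESeq2 1.42.0, no filter, a filter of at least 1 CPM in 3 libraries, a replicate block, and leaving out each library.

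The 10 genes, the 11 lists and the naming rule were chosen with earlier results of these data known. All 10 genes are given. For each list and sort the text names up to 4 called genes of smallest adjusted p or, with none called, the 2 of highest mean CPM. For Pomc, Tshb and Cga it names the 5 genes of most similar level. Names outside the rule are marked as chosen after their values were seen, with some exceptions. Hesx1, Fshb, Cdh1 and the globin genes, given for their counts of 0 or near it, lie outside the rule and carry no mark. The same holds for Ghrhr in the colour plot of levels by library. Epcam, Col1a1 and Dcn were named by the rule in the EGFP sort only, and their mCherry levels are given without a mark. Some genes of the lists are not reported here and are left out of their counts.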

Additional observations from a re-analysis of the deposited data

Results flagged for a closer look

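In the fit of all 12 libraries, 5 named list genes had a log2 difference between the sorts (the mCherry effect minus the EGFP effect) with an adjusted p under 0.05 by edgeR's quasi-likelihood test. Scg2, a granule protein, differed by 3.37 (SE 0.74, adjusted p 0.039), a call kept in 2 of 12 fits that leave out 1 library. Among epithelial genes, Epcam differed by 4.99 (SE 1.07, adjusted p 0.0356), kept in 2 of 12, Mal2 by 4.53 (SE 0.73, adjusted p 0.0122), kept in 11 of 12 and lost without EGFP-negative replicate 3 (0.0512), and Spint1 by 10.53 (SE 1.09, adjusted p 0.00142), kept in all 12. The EGFP-positive libraries hold 1 read of Spint1 in all, so the size of its difference depends on the prior count of the fit. Aldh1l1, an astroglial enzyme, differed by -1.21 (SE 0.23, adjusted p 0.0265), kept in 5 of 12.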

How the results depend on the processing

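The count of called genes in the mCherry sort, 208, moved to 778 with no filter, 316 with the stricter filter and 1476 with DESeq2, and ran from 0 to 212 when 1 library was left out. The 0 arose without mCherry-positive replicate 3 (2439 genes had an unadjusted p under 0.05) and without replicate 1 (3673) or 2 (2764) of the mCherry-negative group. The count in the EGFP sort, 2622, ran from 1137 to 5244 with 1 library left out. The count for the difference between the sorts, 261, moved to 675 with no filter and 894 with DESeq2, and ran from 27 to 591 with 1 library left out. With a replicate block the 3 counts were 343, 3409 and 293, and among the 10 pituitary genes 1 was called in the mCherry sort (Tshb), 4 in the EGFP sort and 2 for the difference (Pomc and Tshb). The labels number the replicates alike in each group. Same-numbered samples deviated together with correlations of 0.126, -0.021 and 0.033 in the mCherry sort and 0.169, 0.001 and 0.066 in the EGFP sort. Not every sample correlated best with its own number, and no pairing was assumed in the fits without a replicate block. These correlations do not tell whether same-numbered samples came from the same culture, which was not tested. The sign turned for 5 uncalled genes of the mCherry sort when 1 library was left out. Sox2 ran from -0.209 to 0.009, Sst from -1.318 to 0.55 and Map2 from -0.035 to 0.167, each with the turned sign without mCherry-negative replicate 3, and Scg3 ran from -0.053 to 0.329, negative without mCherry-positive replicate 1. Insr ran from -0.312 to 0.055, positive without mCherry-negative replicate 1. The cause of these moves was not tested. Of 362 alternative fold changes of the 10 pituitary genes 342 lay within 1 SE of the value given. Of 577 for named list genes, 499 kept their sign and side of the threshold. Taking CPM over all counted reads lowered the mean of Pomc to 18.5 CPM in EGFP-positive and 213 CPM in EGFP-negative libraries.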
